A study of Mus musculus with 19 samples.

Results

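The interferon-inducible GTPases are proteins that cells make in response to interferons and that act against microbes inside the cell. They fall into the guanylate-binding proteins (GBPs), large GTPases that can carry a lipid anchor and coat vacuoles or bacteria, and the immunity-related GTPases (IRGs). Among the IRGs, *Irgm1*, *Irgm2* and *Igtp* (also called *Irgm3*) encode regulators that sit on the membranes of the cell and hold the effector IRGs inactive there, and *Iigp1* (also called *Irga6*) encodes an effector that loads onto the vacuoles of parasites with the help of the ATG8 conjugation machinery of autophagy. Type I interferons act largely through the interferon-stimulated response element (ISRE), a promoter sequence bound by a complex that holds IRF9, and interferon-γ acts largely through the gamma-activated sequence (GAS). In brain tissue these genes are known to be low at rest and to rise in microglia, endothelial cells, astrocytes and neurons when interferon is present.

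Of the 10 genes of the family that were chosen by name (*Gbp2*, *Gbp3*, *Gbp5*, *Gbp6*, *Gbp7*, *Gbp9*, *Irgm1*, *Irgm2*, *Igtp* and *Iigp1*), 8 were analysed, out of 41128 genes in the count table. A gene counted as a member when the GENCODE M21 name of its row was one of these symbols. *Gbp5* and *Gbp6* were not analysed here. All 8 were among the 16841 genes that passed the filter on low counts.

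The study sequenced RNA of the cerebellum, the striatum and the prefrontal cortex of germline SCA17 knock-in mice, a model of spinocerebellar ataxia type 17, and of wild-type (WT) mice of the same age. All animals were 3 months old and of the C57BL/6 strain. The knock-in allele lengthens the glutamine repeat of TBP, a general transcription factor that binds the TATA box, at the endogenous locus, and the study's methods derive it from mice with a floxed *TBP* allele crossed with EIIa-Cre mice and then with WT mice, so every tissue carries it. The cerebellum gave 3 WT and 4 knock-in libraries, and each of the other regions gave 3 of each genotype. Libraries were made from full-length cDNA by the SMART-Seq v4 and Nextera XT kits. These are bulk tissues, in which fewer cells of a type and less RNA per cell cannot be told apart, and no source used here says whether the regions with one replicate number came from one mouse. In the data, striatal and prefrontal libraries of the same genotype and number departed from their group means together, so they may come from the same animals. The main fit below still treats every library as separate. Alternatives that take up the pairs are given beside it.

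Library totals ran from 10639110 to 17431284 counts, with a median of 15082703. The region markers followed the labels: the 6 striatal markers summed to between 3377 and 6780 CPM (a count scaled to a common library total) in striatal libraries and to between 89.4 and 702 CPM in the others, and the 6 cerebellar markers summed to between 4271 and 6430 CPM in cerebellar libraries and to between 234 and 563 CPM in the others. Both sexes were present in each group, since each held at least 1 library with *Xist* counts and at least 1 with Y-linked counts. *Tbp* itself, the gene that carries the allele, was at 58.5 ± 5.23 CPM (SD, n = 3) in WT and 52.9 ± 3.46 CPM (n = 4) in knock-in cerebellum, and its log2 difference of -0.14, -0.12 and -0.15 in the cerebellum, striatum and prefrontal cortex did not pass the test (edgeR, adjusted p = 0.695, 0.848 and 0.929), which does not check the expanded repeat.

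The genes lie in a few clusters of the GRCm38 genome. *Gbp2* (ENSMUSG00000028270, chr3:142620602-142638008), *Gbp3* (ENSMUSG00000028268, chr3:142560026-142573209) and *Gbp7* (ENSMUSG00000040253, chr3:142530342-142550149) share a block of chromosome 3 with *Gbp5* and *Gbp2b*, all on the plus strand. *Gbp9* (ENSMUSG00000029298, chr5:105077630-105139539, minus strand) lies among *Gbp4*, *Gbp8* and *Gbp11*. *Irgm1* (ENSMUSG00000046879, chr11:48861968-48871683, minus strand) lies apart from *Igtp* (ENSMUSG00000078853, chr11:58199556-58207591) and *Irgm2* (ENSMUSG00000069874, chr11:58199618-58222782), which overlap on the plus strand of chromosome 11. *Iigp1* (ENSMUSG00000054072, chr18:60376027-60392634) lies on chromosome 18.

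The promoters show what these loci share in sequence. RefSeq windows of 300 bases on GRCm38.p6, from 250 bases before the start of a transcript to 50 bases after it, matched 7 of the 10 genes by symbol (*Gbp2*, *Gbp3*, *Gbp5*, *Gbp7*, *Irgm1*, *Irgm2* and *Igtp*). The ISRE core was searched as GAAANNGAAA and the GAS core as TTCNNNGAA, each on both strands; the GAS letters are their own reverse complement and were counted once. All 7 genes had an ISRE core in a window, against 3.44% of the 32851 windows of all genes, and 4 of the 7 (*Gbp5*, *Gbp7*, *Irgm2* and *Igtp*) had a GAS core, against 8.30% of all windows. *Gbp3* has a second window, which holds neither. The 110 bases before the start are given, 5′ to 3′ along the gene, for the 6 measured genes with a window because they show where the matches lie; capitals mark the ISRE and GAS cores, which are not known from these data to be bound.

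Gbp2 (chr3:142620553-142620662, plus strand): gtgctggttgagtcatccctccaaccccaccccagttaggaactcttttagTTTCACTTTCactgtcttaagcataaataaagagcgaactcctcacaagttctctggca
Gbp3 (chr3:142559934-142560043, plus strand): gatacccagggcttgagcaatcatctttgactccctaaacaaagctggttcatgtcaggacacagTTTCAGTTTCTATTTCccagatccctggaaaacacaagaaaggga
Gbp7 (chr3:142530226-142530335, plus strand): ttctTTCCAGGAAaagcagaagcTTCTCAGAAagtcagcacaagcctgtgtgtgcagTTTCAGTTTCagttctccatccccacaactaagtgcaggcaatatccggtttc
Irgm1 (chr11:48871421-48871530, minus strand): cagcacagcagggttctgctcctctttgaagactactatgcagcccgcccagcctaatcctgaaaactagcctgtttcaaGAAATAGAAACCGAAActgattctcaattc
Irgm2 (chr11:58214867-58214976, plus strand): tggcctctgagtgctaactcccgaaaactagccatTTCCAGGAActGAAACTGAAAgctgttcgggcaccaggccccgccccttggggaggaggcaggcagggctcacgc
Igtp (chr11:58199446-58199555, plus strand): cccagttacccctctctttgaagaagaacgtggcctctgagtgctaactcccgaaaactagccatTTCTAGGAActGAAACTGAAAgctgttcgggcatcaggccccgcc

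The *Gbp2* stretch has 1 ISRE core on the minus strand, whose first base lies at position -59 from the start. *Gbp3* has 2 overlapping cores at -45 and -39 on the minus strand, and *Irgm1* has 2 overlapping cores at -30 and -24 on the plus strand. *Gbp7* has 1 ISRE core at -53 and GAS cores at -106 and -87. In *Irgm2* the GAS core at -75 and the ISRE core at -64 lie next to each other, and *Igtp* has the same arrangement at -45 and -34. An ISRE core with a GAS core that starts within 20 bases of it was present in 0.131% of all windows. The *Igtp* and *Irgm2* windows aligned over 271 positions with 91.1% identity, so these 2 matches are copies of one arrangement and not separate cases. The letters TATAAA, searched on both strands, were present in 13.6% of all windows and, among the 7 genes, in *Gbp3* alone, at -207; no match to these letters says nothing about TBP at these promoters.

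In WT brain the family was expressed at a low level. The summed level of the 8 genes was between 32.8 and 37.9 CPM in the 3 WT cerebellar libraries, between 43.3 and 61.2 CPM in the striatal ones and between 52.7 and 77.2 CPM in the prefrontal ones. Per kilobase of exon, *Igtp* stood highest in WT prefrontal cortex, at 4.197 ± 1.104 CPM per kilobase (SD, n = 3), followed by *Irgm1* at 3.405 ± 0.709 and *Gbp3* at 2.45 ± 0.686. The spreads of neighbours in this order overlap. *Iigp1* stood lowest in every group, at 0.2601 ± 0.0655 CPM per kilobase in WT cerebellum, and *Gbp9* came next, at 0.778 ± 0.104. The counts behind these values ranged from 12 reads (*Iigp1* in a WT prefrontal library) to 862 reads (*Irgm1* in a knock-in striatal library), so the values of *Iigp1* carry the largest counting error.

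Of the 8 genes, 4 were lower in WT cerebellum than in WT striatum (*Gbp3*, *Gbp7*, *Irgm2* and *Igtp*) and 4 were lower in WT cerebellum than in WT prefrontal cortex (*Gbp7*, *Irgm1*, *Irgm2* and *Igtp*). Of all genes, 56.1% and 51.7% were called in these comparisons, so the share of the family is near the background. The largest of these log2 differences was that of *Igtp* between cerebellum and prefrontal cortex, -1.34 ± 0.29 (SE, adjusted p = 8.8e-04). Between WT striatum and WT prefrontal cortex only *Irgm1* was called, which was lower in striatum, at -0.79 ± 0.27 (adjusted p = 0.0336; background 30.2%), and this call was lost when prefrontal WT 2, prefrontal WT 3, striatum WT 2 or striatum WT 3 was left out. Without striatum WT 1, the count lower in cerebellum than in striatum fell to 1, and without cerebellum WT 2 or cerebellum WT 3 it was 2. The 12 microglia markers moved with these regional differences, at 166 to 172 CPM in WT cerebellum, 772 to 876 CPM in WT striatum and 726 to 773 CPM in WT prefrontal cortex; their part in the regional differences was not tested.

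Knock-in tissue held a higher summed level of the 8 genes than WT tissue in all 3 regions. It was 122 ± 15.1 CPM (SD, n = 4) in knock-in cerebellum against 34.7 ± 2.75 (n = 3) in WT, 164 ± 35.8 (n = 3) against 50.9 ± 9.24 in striatum and 129 ± 26.4 against 63.4 ± 12.6 in prefrontal cortex. These are 3.51, 3.23 and 2.03 times the WT means. In each region the lowest knock-in sum lay above the highest WT sum.

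Gene by gene, 6 of the 8 were called higher in knock-in cerebellum by edgeR's quasi-likelihood test (Benjamini-Hochberg adjusted p under 0.05), 7 of 8 in striatum and 1 of 8 in prefrontal cortex. The shares of all genes called higher were 0.523%, 0.392% and 0.0831%. No member was called lower in any region, and none had a lower value at an unadjusted p under 0.05 in edgeR or was called lower by DESeq2. Averaged over the regions, all 8 were called higher, against 0.855% of all genes, and all 8 were also called when the striatal and prefrontal counts of each pair were summed into 1 library (13 libraries, edgeR, adjusted p from 5.9e-05 for *Gbp3* to 0.0175 for *Iigp1*). The median log2 difference of the 8 was 1.76 in cerebellum, 1.50 in striatum and 0.99 in prefrontal cortex, while the median over all genes was within 0.01 of 0 in each. Every knock-in library was above every WT library for 8 of 8 genes in cerebellum, 8 of 8 in striatum and 5 of 8 in prefrontal cortex (all genes: 5.82%, 5.65% and 4.38%).

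**Figure D1:**
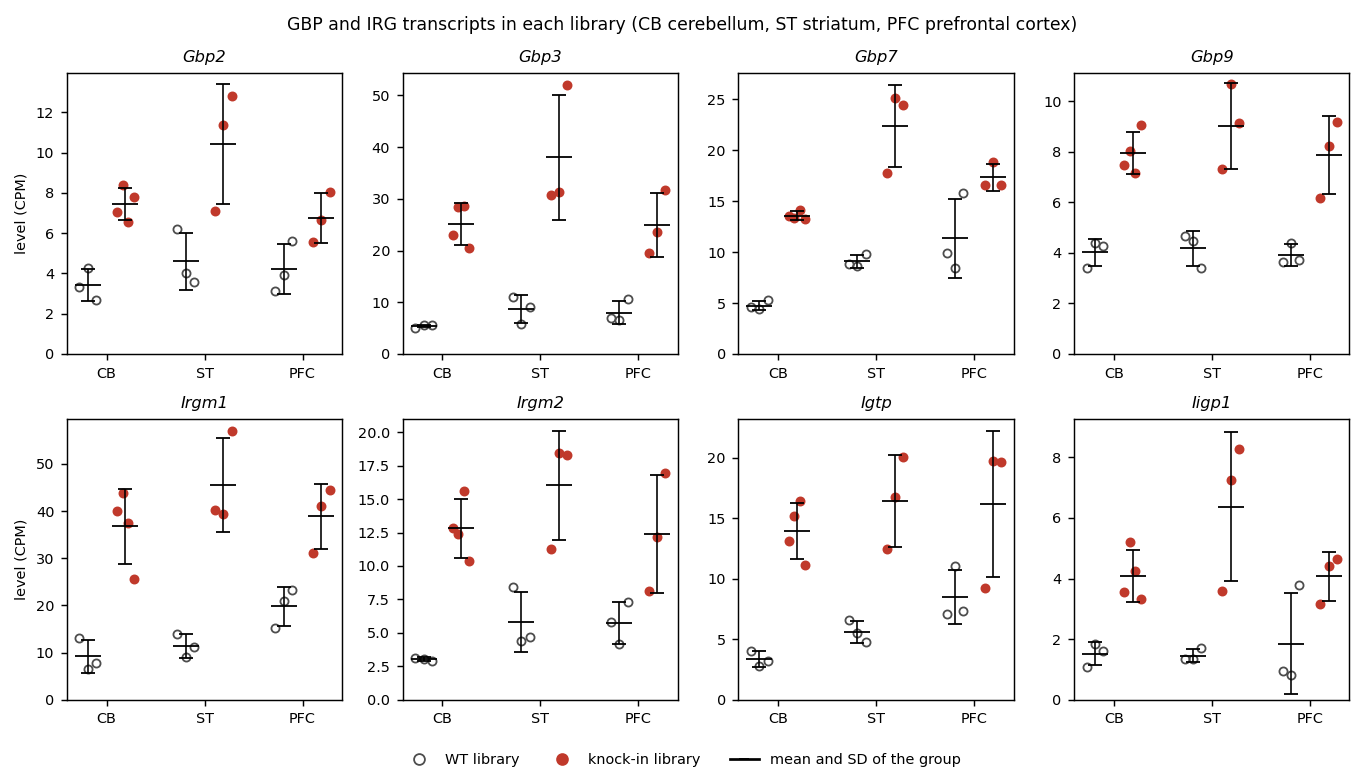
Level of each of the 8 analysed genes in CPM (linear axis from 0) in every library, with WT as open circles, knock-in as filled circles and the mean and SD of each group as bars. Knock-in libraries lie above all WT libraries of their region in each cerebellar and striatal panel, and *Gbp2*, *Igtp* and *Iigp1* overlap between genotypes in prefrontal cortex.

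*Gbp3*, of the chromosome 3 block, had the largest change of the GBPs. In the cerebellum it was at 5.08, 5.57 and 5.58 CPM in the WT libraries and 22.97, 28.4, 28.5 and 20.4 CPM in the knock-in libraries. In the striatum it was at 11.1, 5.87 and 9.12 CPM in the WT libraries and 30.8, 31.3 and 51.95 CPM in the knock-in libraries, and in the prefrontal cortex at 6.92, 6.51 and 10.6 CPM in the WT libraries and 19.6, 23.7 and 31.6 CPM in the knock-in libraries. The genotypes did not overlap in any region. The log2 differences were 2.21 ± 0.26, 2.13 ± 0.26 and 1.64 ± 0.26 (SE), which are 4.64-, 4.37- and 3.11-fold, and the adjusted p values in the cerebellum, striatum and prefrontal cortex were 2.1e-04, 4.2e-04 and 0.0186. It was the only member called in the prefrontal cortex, and it was no longer called there without prefrontal KI 3, prefrontal WT 1 or prefrontal WT 2.

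*Gbp7* encodes a GBP that has been tied to the assembly of the phagocyte oxidase. It was at 4.56, 4.39 and 5.26 CPM in the WT libraries and 13.6, 13.3, 14.2 and 13.2 CPM in the knock-in libraries of the cerebellum, with no overlap and a spread among knock-in libraries of less than 1 CPM. Striatal levels were 8.81, 8.62 and 9.81 CPM in the WT libraries and 17.8, 25.1 and 24.4 CPM in the knock-in libraries. In the prefrontal cortex it was at 9.93, 8.41 and 15.8 CPM in the WT libraries and 16.6, 18.8 and 16.6 CPM in the knock-in libraries, where WT 3 stood just below the lowest knock-in library. The log2 differences were 1.52 ± 0.19, 1.30 ± 0.19 and 0.61 ± 0.19, and the adjusted p values in the cerebellum, striatum and prefrontal cortex were 2.7e-04, 0.0019 and 0.548.

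*Gbp2*, whose human counterpart is also interferon-inducible, changed less. Its level was 3.34, 4.26 and 2.67 CPM in the WT libraries and 7.04, 8.37, 6.55 and 7.798 CPM in the knock-in libraries of the cerebellum. In the striatum it was 6.21, 4.01 and 3.55 CPM in the WT libraries and 7.097, 11.4 and 12.8 CPM in the knock-in libraries, and in the prefrontal cortex 3.15, 3.94 and 5.59 CPM in the WT libraries and 5.58, 6.67 and 8.03 CPM in the knock-in libraries. The genotypes did not overlap in cerebellum and striatum, and in prefrontal cortex KI 1 was just below WT 3. The log2 differences of 1.11 ± 0.26, 1.18 ± 0.27 and 0.67 ± 0.28 did not pass the threshold in any single region, since the adjusted p values in the cerebellum, striatum and prefrontal cortex were 0.0573, 0.06297 and 0.7898, and their average, 0.99 ± 0.16, did (adjusted p = 0.0017).

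*Gbp9*, of the chromosome 5 block, differed by nearly the same amount in each region. It was at 3.41, 4.39 and 4.29 CPM in the WT libraries and 7.49, 8.04, 7.17 and 9.07 CPM in the knock-in libraries of the cerebellum. The striatum had 4.67, 4.46 and 3.399 CPM in the WT libraries and 7.30, 10.7 and 9.12 CPM in the knock-in libraries, and the prefrontal cortex had 3.63, 4.41 and 3.71 CPM in the WT libraries and 6.18, 8.24 and 9.19 CPM in the knock-in libraries. The genotypes did not overlap in any region. Knock-in and WT differed by 0.98 ± 0.19, 1.11 ± 0.20 and 1.00 ± 0.20 on the log2 scale, and the adjusted p values in the cerebellum, striatum and prefrontal cortex were 0.0158, 0.0141 and 0.0935.

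The regulatory IRGs had the largest changes in the cerebellum beside *Gbp3*. *Irgm1* was at 13.2, 6.55 and 7.84 CPM in the WT libraries and 40.02, 43.9, 37.6 and 25.5 CPM in the knock-in libraries there. Striatal levels were 14.02, 9.07 and 11.2 CPM in the WT libraries and 40.1, 39.4 and 56.97 CPM in the knock-in libraries, and in the prefrontal cortex at 15.2, 20.97 and 23.2 CPM in the WT libraries and 31.1, 41.1 and 44.4 CPM in the knock-in libraries. In each region its lowest knock-in library was above its highest WT library. The log2 differences were 2.00 ± 0.26, 1.99 ± 0.27 and 0.97 ± 0.26, and the adjusted p values in the cerebellum, striatum and prefrontal cortex were 5.1e-04, 0.0012 and 0.434.

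*Irgm2* was at 3.15, 3.08 and 2.91 CPM in the WT libraries and 12.8, 12.4, 15.6 and 10.3 CPM in the knock-in libraries of the cerebellum. In the striatum it was at 8.41, 4.38 and 4.71 CPM in the WT libraries and 11.3, 18.5 and 18.3 CPM in the knock-in libraries, and in the prefrontal cortex at 5.82, 4.14 and 7.28 CPM in the WT libraries and 8.12, 12.1 and 16.9 CPM in the knock-in libraries. There was no overlap in any region, although striatum WT 1 and prefrontal WT 3 came near the lowest knock-in library. Knock-in and WT differed by 2.07 ± 0.30, 1.45 ± 0.30 and 1.10 ± 0.30 on the log2 scale, and the adjusted p values in the cerebellum, striatum and prefrontal cortex were 9.1e-04, 0.0304 and 0.434.

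*Igtp* was at 4.05, 2.75 and 3.23 CPM in the WT libraries and 13.1, 15.2, 16.4 and 11.1 CPM in the knock-in libraries of the cerebellum. The striatal libraries had 6.61, 5.50 and 4.79 CPM in the WT libraries and 12.5, 16.8 and 20.03 CPM in the knock-in libraries, and in the prefrontal cortex at 7.05, 11.1 and 7.35 CPM in the WT libraries and 9.21, 19.7 and 19.6 CPM in the knock-in libraries. Prefrontal KI 1 fell within the WT range, and the other groups did not overlap. The log2 differences were 2.06 ± 0.28, 1.54 ± 0.28 and 0.93 ± 0.27, and the adjusted p values in the cerebellum, striatum and prefrontal cortex were 5.6e-04, 0.01398 and 0.534. The annotated exons of *Igtp* and *Irgm2* share 162 bases on the same strand, which is 8.01% of the exon length of *Igtp* and 4.39% of that of *Irgm2*, so part of the reads of each cannot be assigned with certainty.

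*Iigp1*, the effector, had the lowest level and the widest error. It was at 1.09, 1.83 and 1.62 CPM in the WT libraries and 3.55, 5.21, 4.26 and 3.33 CPM in the knock-in libraries of the cerebellum. In the striatum it was at 1.34, 1.34 and 1.70 CPM in the WT libraries and 3.58, 7.26 and 8.26 CPM in the knock-in libraries. In the prefrontal cortex it was at 0.959, 0.814 and 3.77 CPM in the WT libraries and 3.15, 4.42 and 4.64 CPM in the knock-in libraries, and WT 3 lay among the knock-in values while the other WT libraries lay well below. Knock-in and WT differed by 1.43 ± 0.44, 2.12 ± 0.46 and 1.13 ± 0.45 on the log2 scale, and the adjusted p values in the cerebellum, striatum and prefrontal cortex were 0.1802, 0.0442 and 0.779. The striatal call held in only 6 of the 19 edgeR fits with 1 library left out, where its adjusted p reached 0.229.

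**Figure D2:**
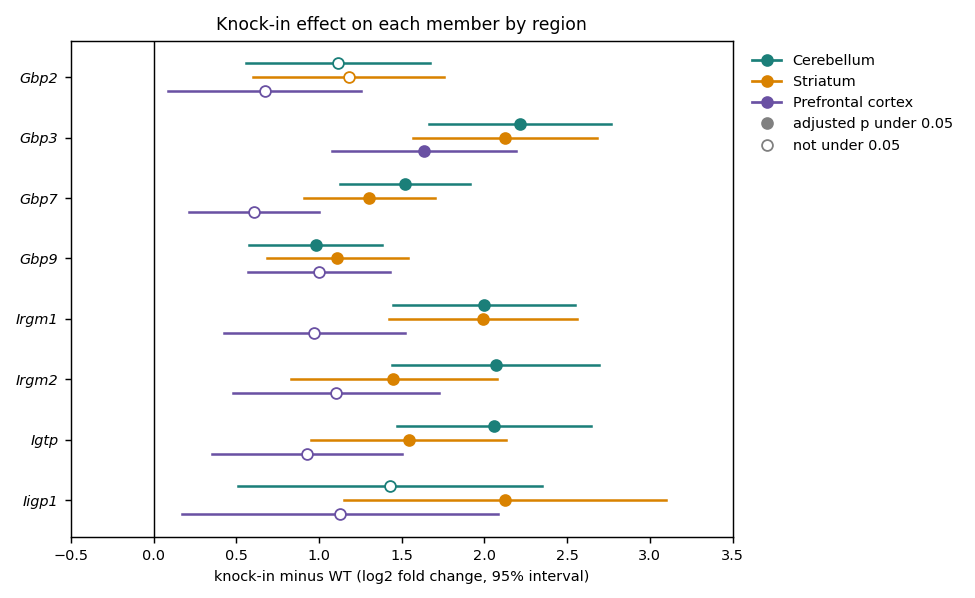
Knock-in minus WT log2 fold change of each gene in the cerebellum, striatum and prefrontal cortex (points) with the 95% interval of the edgeR fit (lines); filled points passed an adjusted p of 0.05. All 24 intervals lie above 0, and the prefrontal point is the lowest of the 3 for every gene except *Gbp9*.

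The number called depended on single libraries in the forebrain. In striatum the count was 4 without KI 2 and 3 without KI 3, WT 2 or WT 3. In prefrontal cortex it was 0 without KI 3, WT 1 or WT 2 and 3 without WT 3. In cerebellum it ranged from 5 to 8 over the libraries left out in turn, and all 8 genes remained called in the average over regions whichever library was left out. With each region fitted alone, which leaves fewer libraries to estimate the spread, edgeR called 4 in striatum and 0 in prefrontal cortex. Over all genes these fits called 29 higher and 16 lower in striatum, and 0 in either direction in prefrontal cortex.

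Whether the knock-in effect differed between regions was tested by interaction contrasts. No member passed for cerebellum against striatum, cerebellum against prefrontal cortex or striatum against prefrontal cortex, with edgeR or with DESeq2 (all genes, edgeR: 0.0119%, 0.0178% and 0%). The median difference of the 8 genes was 0.05, 0.75 and 0.56 on the log2 scale. At an unadjusted p under 0.05 the counts were 0, 4 and 2 of 8. Over all 16841 genes the counts at this threshold were 1127, 1017 and 728, in either direction. The 4 genes were *Gbp7*, *Irgm1*, *Irgm2* and *Igtp*, whose effect was larger in cerebellum than in prefrontal cortex by 0.91 ± 0.26, 1.02 ± 0.36, 0.97 ± 0.41 and 1.13 ± 0.38 on the log2 scale, with adjusted p values of 0.452, 0.640, 0.773 and 0.609. Their 95% intervals ran from 0.10 at the lowest to 1.94 at the highest. For *Gbp9* the difference was -0.02 ± 0.28 (95% interval -0.60 to 0.56). A smaller count of calls in prefrontal cortex is therefore not shown to be a smaller effect.

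The level of these genes in WT prefrontal cortex stands beside this. *Igtp* was at 8.49 ± 2.23 CPM (SD, n = 3) in WT prefrontal cortex, 5.63 ± 0.918 in WT striatum and 3.35 ± 0.656 in WT cerebellum, and at 16.2 ± 6.04, 16.4 ± 3.77 and 14.0 ± 2.33 CPM (n = 4 for cerebellum) in the knock-in groups. *Irgm1* was at 19.8 ± 4.12, 11.4 ± 2.49 and 9.19 ± 3.51 CPM in WT and at 38.9 ± 6.95, 45.5 ± 9.95 and 36.8 ± 7.94 CPM in knock-in tissue. *Gbp2* was at 3.42, 4.59 and 4.23 CPM in WT and 7.44, 10.43 and 6.76 CPM in knock-in cerebellum, striatum and prefrontal cortex. As a description of group means, the knock-in means of *Gbp3*, *Gbp7*, *Irgm1*, *Irgm2* and *Igtp* spanned fewer fold across regions than their WT means. The knock-in means of *Gbp2*, *Gbp9* and *Iigp1* spanned more.

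Within a group, the genes of the family tended to depart from the group mean in the same libraries. Striatum KI 1 was the lowest of its group for 7 of 8 genes and prefrontal KI 1 likewise for 7 of 8, and striatum KI 3 and prefrontal KI 3 were the highest for 5 and 6 of 8; since libraries of one number in these regions pair, these may be the same animals and are not separate cases. Among WT libraries, prefrontal WT 3 and striatum WT 1 were each the highest of their group for 6 of 8. Over the 28 gene pairs, the correlation of the departures from the group mean over 19 libraries had a median Pearson r of 0.49, from -0.09 (*Gbp9* with *Irgm1*) to 0.88 (*Gbp7* with *Iigp1*), with 27 of 28 above 0. These points share libraries, their depth and the forebrain pairs, and no test is given. By their *Xist* and Y-linked counts, KI 3 was the female and KI 1 and KI 2 were males in both forebrain regions; with the log2 ratio of these counts as a covariate there were 6, 7 and 1 members called in cerebellum, striatum and prefrontal cortex.

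**Figure D3:**
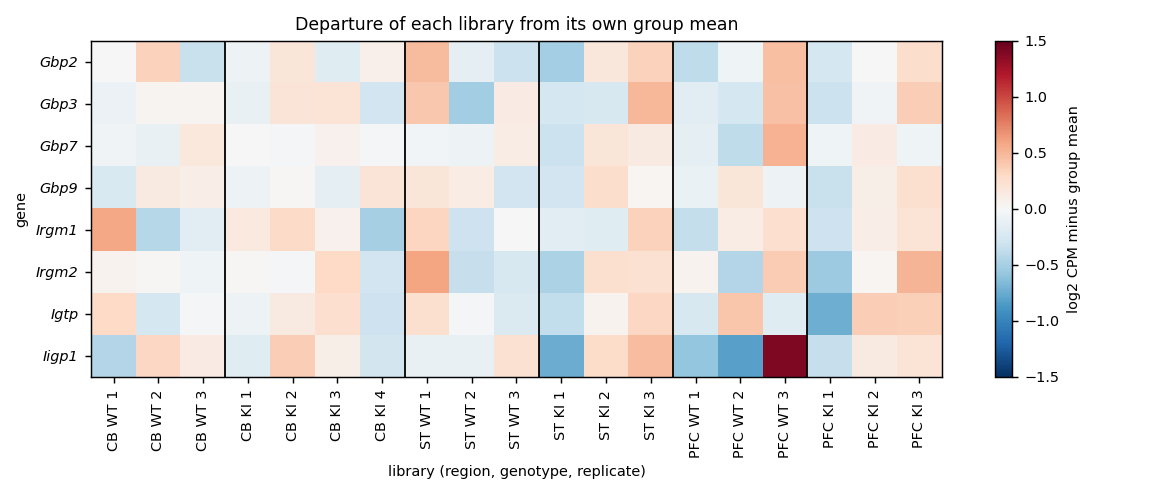
Departure of each library (columns, in blocks by region and genotype) from its own group mean in log2 CPM for each gene (rows), red above and blue below. Striatum KI 1 and prefrontal KI 1 are below the mean in nearly every row, and prefrontal WT 3 is above it in 6 rows, most of all for *Iigp1*.

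Other GTPases of these families had differences of the same sign. Of 19 further genes (the remaining GBPs, IRGs and their relatives *Gvin1*, *Mx1* and *Mx2*), 18 had a row and 13 passed the filter. All 13 had a positive difference in each region, with medians of 1.15, 1.66 and 0.97, but 1 was called in cerebellum (*Mx2*, 2.06 ± 0.44, adjusted p = 0.0298), 1 in striatum (*Gm5431*, 3.83 ± 0.78, adjusted p = 0.0304) and 0 in prefrontal cortex, where 4 had an unadjusted p under 0.05 in edgeR and DESeq2 called 0. In the average over regions 6 of 13 passed: *Gm5431*, *Gm4951*, *Tgtp2*, *Tgtp1*, *Mx2* and *9930111J21Rik1*. *Gm5431* had 116 reads over all 19 libraries, so its value rests on few reads. *Irgq*, a relative that is not known to be induced by interferon, had the smallest differences, of 0.13, 0.11 and 0.16, and passed in no region. The near-identical pair *Tgtp1* and *Tgtp2* share 2480 of their 50-base stretches, so their values (1.80 ± 0.38 and 1.90 ± 0.33 in the average) cannot be separated. *9930111J21Rik1* (edgeR, adjusted p = 0.0485 in the average) shares 82.9% of its stretches with other genes, mostly with *9930111J21Rik2*, which did not pass. *Gm5431* shares 37.3%, mostly with *9930111J21Rik1*, so these calls are not fully separate.

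Read sharing was limited for most of the 8. The share of all 50-base stretches of a gene's transcripts that also occur in a transcript of another gene was 0.31% for *Irgm1*, 1.69% for *Iigp1*, 2.03% for *Gbp2*, 3.75% for *Gbp3*, 7.77% for *Irgm2*, 8.05% for *Gbp9*, 11.8% for *Igtp* and 12.7% for *Gbp7*. The read length is not given in the sources used here, so the figure of 50 bases is a setting. Summed over its 4 analysed GBP genes (*Gbp2*, *Gbp3*, *Gbp7* and *Gbp2b*) before the fit, the chromosome 3 block was higher by 1.57 ± 0.19 in cerebellum, 1.60 ± 0.20 in striatum and 1.05 ± 0.19 in prefrontal cortex (SE, adjusted p = 2.7e-04, 4.0e-04 and 0.0501). The 10 analysed genes of chromosome 11 gave 1.96 ± 0.23, 1.70 ± 0.23 and 0.99 ± 0.23 (adjusted p = 2.2e-04, 0.0014 and 0.214), and the 4 of chromosome 5 (*Gbp9*, *Gbp4*, *Gbp8* and *Gbp11*) gave 0.83 ± 0.20, 1.11 ± 0.22 and 0.92 ± 0.22 (adjusted p = 0.0724, 0.0210 and 0.233).

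The rest of the pathway was then described from ligand to target. Of 7 interferon ligand genes with a row, 6, among them *Ifng* and *Ifnb1*, had 0 counts in all 19 libraries, which allows up to 0.0106 CPM over the summed depth of 282374147 counts; this limit covers counting error alone. *Ifnk* had 8 counts in all. None passed the filter, and most of the interferon-α genes are not on the list.

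The receptors and JAK kinases, 8 of which were tested, had medians of 0.07, -0.01 and 0.06, and none was called in any region; none had an unadjusted p under 0.05 in edgeR and DESeq2 called 0. *Ifnar2*, a chain of the type I receptor, was at 0.15, 0.02 and 0.20. Among transcription factors of the pathway, *Irf9* was higher by 2.33, 2.03 and 1.47 on the log2 scale in cerebellum, striatum and prefrontal cortex (edgeR, adjusted p = 2.6e-06, 1.0e-05 and 0.0029), and *Irf7*, which is known to amplify type I interferon production, by 3.16, 3.10 and 2.25 (2.1e-04, 4.1e-04 and 0.0186). *Stat2* was higher in striatum alone among the regional calls (0.52, adjusted p = 0.0188), and *Irf1*, the factor that interferon-γ is best known to induce, had differences of 0.47, 0.55 and 0.24 that did not pass (0.428, 0.429 and 0.940).

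Targets that are known mainly for type I interferon had larger median differences than the GTPases. All 10 tested were higher in cerebellum, all 10 in striatum and 4 in prefrontal cortex, with medians of 2.28, 2.91 and 1.84. *Ifit3*, of the IFIT family of antiviral proteins, was higher by 2.21, 2.86 and 1.87, and *Oasl2*, of the oligoadenylate synthetase family, by 2.85, 2.92 and 2.32, each called in all 3 regions. Genes that are known mainly for interferon-γ had medians near 0: of 8 tested, 0 were called in any region by edgeR or DESeq2, with 0, 1 and 0 at an unadjusted p under 0.05 and medians of 0.02, -0.13 and -0.17. *Cxcl10*, a chemokine that both interferon types can induce, stood apart, at 0.47, 2.72 and -0.68 with adjusted p values of 0.924, 0.229 and 0.979 (edgeR). *H2-Ab1*, which encodes a chain of MHC class II, had differences of -0.14, -0.33 and -0.39, and *Ciita*, the regulator of those genes, had -0.08, 0.52 and 0.18 in the 3 regions, none past the threshold. Among 6 feedback inhibitors, edgeR called only *Usp18*, which restrains the type I receptor. It was higher by 3.68, 3.49 and 2.33 in cerebellum, striatum and prefrontal cortex. DESeq2 called 2 of the 6 higher in cerebellum and 1 in each of the other regions.

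**Figure D4:**
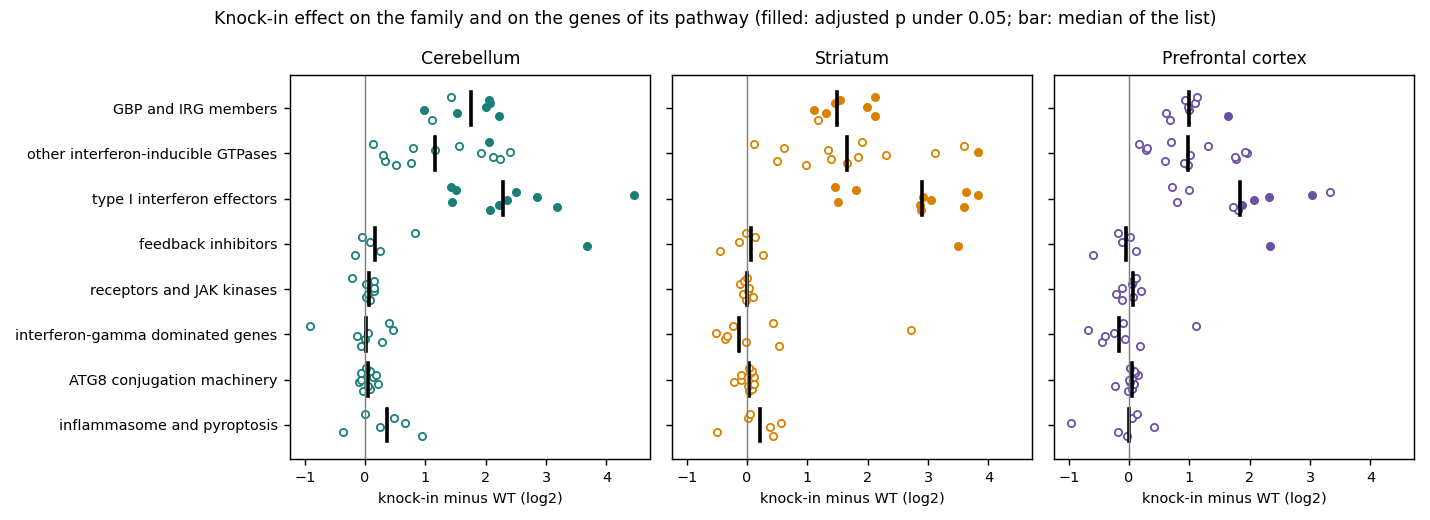
Knock-in minus WT log2 fold change of every tested gene of 8 lists in the cerebellum, striatum and prefrontal cortex (points, filled where the adjusted p was under 0.05; bars are list medians). The GBP and IRG members, the other GTPases and the type I effectors lie to the right of 0, and the receptors, the interferon-γ list and the ATG8 list are centred near 0.

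Partners through which these GTPases are known to act were described as well. Of 11 genes of the ATG8 conjugation machinery, which places the effector IRGs and GBPs on their target membranes, 0 were called in any region by edgeR or DESeq2 (0, 1 and 1 at an unadjusted p under 0.05), and the medians were 0.05, 0.03 and 0.04. *Atg12* had differences of -0.11, -0.21 and 0.02. Of 6 tested genes of inflammasome and pyroptosis, which GBPs can engage, 0 were called by edgeR or DESeq2 (1, 0 and 1 at an unadjusted p under 0.05), with medians of 0.36, 0.22 and 0.00 and 5, 5 and 3 genes positive. *Aim2*, a sensor of DNA, was at 0.95 in cerebellum (adjusted p = 0.312).

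The genes whose pattern was most like the mean of the family over 19 libraries, after the mean of each region was removed, were *Usp18* (Pearson r = 0.983), *Lgals9* (0.977), *Irf7* (0.976), *Oasl2* (0.975) and *Ifit1* (0.974). The difference between genotypes makes up much of this likeness, and the points share libraries and depth.

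Markers of cell types were measured beside the family, because they can move with it. In cerebellum, 8 of 12 microglia markers were called higher and 12 of 12 were positive, with a median log2 difference of 0.76, against 1.76 for the family. Their sum was 166 to 172 CPM in WT and 250 to 332 CPM in knock-in cerebellum, 1.69 times as high. In striatum the sums overlapped, at 772 to 876 and 787 to 905 CPM, and in prefrontal cortex they were 726 to 773 CPM in WT and 651 to 784 CPM in knock-in; 0 of 12 were called in either region by edgeR or DESeq2, with 2 and 1 at an unadjusted p under 0.05. In striatum and prefrontal cortex the family was at 3.23 and 2.03 times its WT mean, and the microglia markers were at 1.03 and 0.935 times theirs. These sums do not separate cell number from RNA per cell, and the source of the difference was not tested.

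With the mean log2 level of these markers, centred within each region, as a covariate in edgeR, the cerebellar differences of the 8 genes had a median of 1.08, from 0.04 (*Gbp2*) to 1.35 (*Irgm1*), all with larger errors, and 0 of 8 were called (1 at an unadjusted p under 0.05), as were 0 of all genes. In the cerebellum the covariate and the genotype do not overlap and cannot be told apart. In striatum the same fit left 5 of 8 called, with *Gbp3* at 1.99 and *Irgm1* at 1.92, beside 51 higher and 25 lower over all genes. In prefrontal cortex it called 1 of 8, beside 14 higher and 1 lower over all genes. All 8 had an unadjusted p under 0.05 in both of these regions, as did 1309 and 934 of all genes in striatum and prefrontal cortex. The family's sum as a percentage of the microglia sum ran from 19.4 to 22.7 in WT and from 35.0 to 52.1 in knock-in cerebellum, from 5.60 to 6.99 and from 16.1 to 22.3 in striatum, and from 6.81 to 10.6 and from 15.3 to 20.7 in prefrontal cortex.

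**Figure D5:**
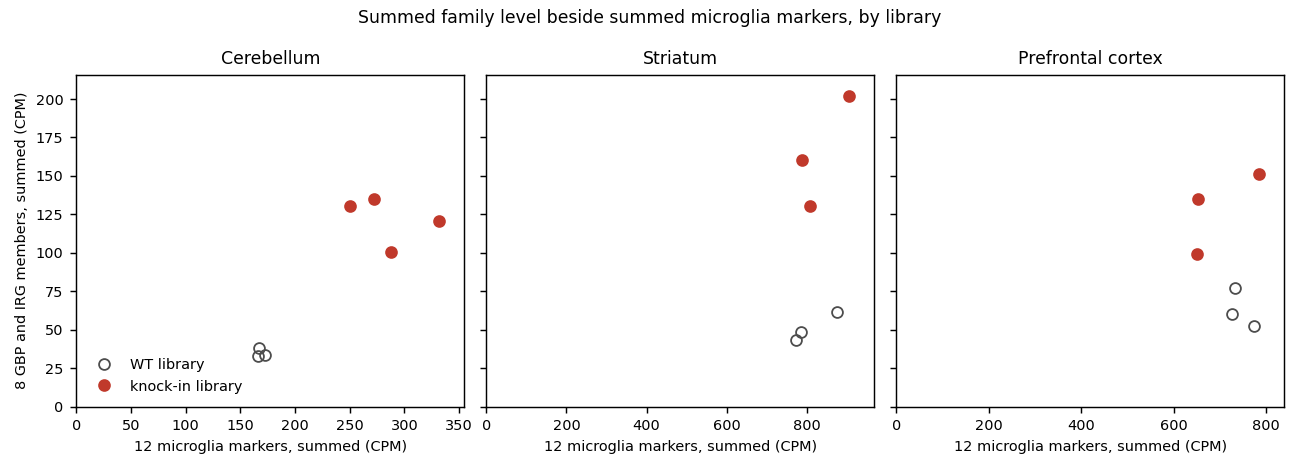
Summed level of the 8 GBP and IRG members (vertical, CPM) against the summed level of 12 microglia markers (horizontal, CPM) in each library, by region, with WT as open and knock-in as filled circles. The genotypes separate on both axes in cerebellum and on the vertical axis alone in striatum and prefrontal cortex.

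No marker of endothelial cells, astrocytes, oligodendrocytes or neurons (8 of each) was called in any region by edgeR, and DESeq2 called none; at an unadjusted p under 0.05 there were 1 endothelial, 1 astrocyte and 1 neuron marker, all in striatum. Endothelial sums were 254 to 291 CPM in WT and 280 to 306 CPM in knock-in cerebellum, and 371 to 547 against 435 to 462 CPM in striatum. Of 10 markers of T and NK cells, 2 passed the filter and neither was called by edgeR or DESeq2. In prefrontal cortex 1 had an unadjusted p under 0.05 in edgeR. The sum of the 10 was lower in knock-in striatum (78.0 to 113 CPM) than in WT striatum (120 to 154 CPM). It reached at most 2.66 CPM in cerebellar and 14.8 CPM in prefrontal libraries. With 2 markers past the filter, the striatal sum rests on few genes and is not read as a count of these cells. The 6 choroid plexus markers varied from 20.9 to 4967 CPM among cerebellar libraries and from 1563 to 9010 CPM among striatal ones, overlapped between genotypes in both, and were called in no region by edgeR or DESeq2, with 0 at an unadjusted p under 0.05. Region markers moved with genotype too: the cerebellar markers summed to 4271 to 5493 CPM in knock-in and 6083 to 6430 CPM in WT cerebellum, with *Pcp2*, a Purkinje cell gene, lower (-1.16, adjusted p = 1.8e-04), and the striatal markers to 3377 to 4803 CPM in knock-in and 5663 to 6780 CPM in WT striatum, with none of 6 called. In prefrontal cortex the striatal markers had a median log2 difference of 0.72, with 6 of 6 positive and 0 called by edgeR. Their sums overlapped there, at 112 to 702 CPM in knock-in and 172.5 to 402 CPM in WT libraries. The part of these shifts in the family's values was not tested.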

How the data were processed

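Total RNA of 19 libraries was sequenced. The authors deposited gene counts and, beside them, a signal table of the same counts divided by 1 size factor per library; the submitters' processing notes name bcl2fastq 2.17.1.14, STAR 2.5.2b, HTSeq, DESeq2 1.10.1 and GRCm38.p3, without roles. The annotation and the strand setting of the counting are not given in the sources used here. Rows were named by GENCODE M21 (40254 of 41128 IDs matched).

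The counts were tested with edgeR 4.0.16 (R 4.3.3) in 1 fit of 6 groups: filterByExpr, TMM scaling, robust dispersion and quasi-likelihood fit with 13 residual degrees of freedom, and Benjamini-Hochberg adjustment over 16841 genes. Log2 CPM used a prior count of 2. The fit was tested on simulated data. DESeq2 1.42.0, other filters, scalings, covariates and blocks, and each library left out were alternatives. Labels describe separate mice per genotype. Departures from the group means correlated in all 6 pairs of striatal and prefrontal libraries of 1 genotype and number (r from 0.233 to 0.368). Libraries of other numbers gave r from -0.253 to -0.076. Departures within a group sum to 0, so a positive r with 1 partner forces the others below 0 on average. These negative values are not separate evidence. The main fit did not model these pairs and treated the 19 libraries as separate. Alternatives chosen after seeing the data took them up as pairs, from the data and not the labels. All members were named, with at most 5 genes of each other list by the smallest p of the averaged effect, plus *Ifng*, *Ifnb1*, *Irf1* and *Tbp*, and the 5 genes most like the family. The members and lists were chosen with earlier results of these data known. Of this selection, *Gbp5* and *Gbp6* were not analysed here, and 1 further gene and the counts of its list are not reported here.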

Additional observations from a re-analysis of the deposited data

How the results depend on the processing

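Of 976 values of single genes under the alternatives, 905 counted as unchanged, 51 fell short of the threshold, 20 newly passed it and none changed sign. For tested values, unchanged means the same direction and side of the threshold. The authors' normalized counts carry no test. Their values counted as unchanged when they kept direction and departed from the main value by less than the pooled SD of the libraries. DESeq2, on the 6 groups and with each region alone, called 2 members in prefrontal cortex. edgeR with each region alone called 4 in striatum and 0 in prefrontal cortex, with fewer libraries in each fit. Over all genes it called 29 higher in striatum and 0 in prefrontal cortex. Without a low count filter 0 members differed between WT striatum and WT prefrontal cortex. The microglia marker covariate left 0 called in cerebellum, 3 in the average over regions, and 0, 1 and 0 for WT cerebellum against striatum, WT cerebellum against prefrontal cortex and WT striatum against prefrontal cortex. It was centred within each region, so it does not hold the difference in microglia markers between regions. The WT counts under it therefore cannot show the part of microglia in the regional differences, which was not tested. Leaving out 1 library at a time gave 5 to 8 members called in cerebellum, 3 to 8 in striatum, 0 to 3 in prefrontal cortex, 8 to 8 in the average, 1 to 4, 3 to 4 and 0 to 1 in the WT comparisons in the same order, and 0 to 0 in the 3 differences of effects. A fit without robust moderation, an alternative chosen after seeing the data, gave the same counts of members. Over all genes, DESeq2 called 175, 112 and 33 higher and 161, 102 and 19 lower in cerebellum, striatum and prefrontal cortex, against 88, 66 and 14 higher and 56, 34 and 2 lower in edgeR; in the average it called 228 higher and 212 lower, against 144 and 84. The cause of these changes was not tested.

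The replicate block within regions gave 5 members in cerebellum, where *Gbp9* was lost (0.92, edgeR adjusted p = 0.0840), 4 in striatum, and 2, 1 and 0 in the WT comparisons; the replicate block across regions changed no count of members. Knock-in and WT libraries of 1 region with the same number had a median correlation of their departures of 0.010, from -0.245 to 0.172, with 2 of 9 pairs over 0.1, and 6 of 18 libraries correlated best with their own number, so the numbers do not pair knock-in with WT libraries. Striatal and prefrontal libraries of 1 genotype do pair by number, and 2 alternatives chosen after seeing the data took this up. A replicate block over these pairs called 1 member between WT striatum and WT prefrontal cortex (*Irgm1*, -0.79, edgeR adjusted p = 0.0482) and 0 for the difference of effects between these regions (3 at an unadjusted p under 0.05), and counts summed over each pair called 8 in the average. Cerebellar libraries did not pair with either region by number (2 of 6 and 0 of 6 pairs over 0.1).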
